A study of Mus musculus with 6 samples.

Results

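CHIR99021 (CHIR) was given to 2 states of the same mouse pluripotent line, and the values described here are the differences between the 2 responses. For each gene, the log2 change under CHIR in epiblast-like cells (EpiLC) was taken, and the log2 change under CHIR in mouse embryonic stem cells (mESC) was subtracted from it. The comparison rests on 4 of the 6 arrays of the series, and it was computed for 22180 genes, those named by probes with a single gene symbol. The groups were CHIR-treated EpiLC, untreated EpiLC, CHIR-treated mESC and untreated mESC, with 1 array each and no replicate. All cells came from the EB3 line. For EpiLC the stem cells were induced over 2 days in N2B27 medium that held Activin A (20 ng/ml) and bFGF (12 ng/ml). The mESC grew in N2B27 with LIF and BMP4. CHIR was used at 3 µM for 24 hours, and the labels do not say how those hours lay relative to the induction. Any difference in culture time between treated and untreated cells therefore cannot be told apart from CHIR. The other 2 arrays held EpiLC and mESC that had received CHIR together with 1 µM PD0325901 (PD, an inhibitor of the ERK-activating kinase MEK). They were not used in the difference and are only set beside it. State and medium went together by design, so a difference between EpiLC and mESC cannot be told apart from a difference between the media. With 1 array per group no test can be made and no value carries an error, so precision is limited by how few arrays there are.

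As background, GSK3 is a kinase of the destruction complex that marks beta-catenin for degradation, and CHIR inhibits it. Beta-catenin then accumulates and acts with TCF/LEF factors on Wnt target genes, several of which encode inhibitors of the same pathway. In the embryo, Wnt signalling in the posterior epiblast accompanies formation of the primitive streak and of mesoderm, while in embryonic stem cells it relieves repression by Tcf7l1 and favours self-renewal.

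Esrrb and Fgf5 set the 2 states apart as labelled, and the epiblast genes Otx2 and Pou3f1 did so only within each treatment. The naive transcription factor Esrrb was at an intensity of 21.4 with CHIR and 22.5 without it in EpiLC, against 467 with CHIR and 357 without it in mESC. Fgf5, the classical gene of the post-implantation epiblast, was at 770.02 (CHIR) and 1259 (untreated) in EpiLC, against 35.6 (CHIR) and 36.0 (untreated) in mESC. The shared factor Pou5f1 (Oct4) was at 881 in CHIR-treated EpiLC and 1289.5 in untreated EpiLC, against 1234 in CHIR-treated mESC and 1342 in untreated mESC. Esrrb and Fgf5 were thus each high in one state with and without CHIR, and Oct4 was present on all 4 arrays. Otx2 was at 309.7 (CHIR) and 1025 (untreated) in EpiLC, against 56.2 (CHIR) and 410.5 (untreated) in mESC. Pou3f1 was at 123 (CHIR) and 538 (untreated) in EpiLC, against 63.7 (CHIR) and 122 (untreated) in mESC. In CHIR-treated EpiLC, Otx2 was thus below untreated mESC and Pou3f1 was level with it. On these arrays the median probe had an intensity between 60.82 and 65.17, and the lowest value was 16 on each.

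Across all genes the difference between the responses had a median of -0.02 on the log2 scale, and the central 95% of genes lay between -0.74 and 0.79. A gene was counted when its 2 fold changes differed at least 2-fold, that is by 1 or more on the log2 scale. By this measure 320 genes responded more positively in EpiLC, which is 1.44% of all genes, and 208 responded more negatively, which is 0.938%. These shares of all genes are the background for the counts in the gene lists below. Both counts depend on how dim values are treated, being 637 and 681 with the lowest intensity of the table shifted to 4, and 175 and 82 with it shifted to 64, so the excess of positive differences turned round under the shift to 4. Most of the 320 were higher under CHIR in EpiLC itself. Of them, 244 were at least 2-fold higher under CHIR in EpiLC and stayed within 2-fold in mESC, and 12 were at least 2-fold lower in mESC and within 2-fold in EpiLC. Another 5 were at least 2-fold higher in both states, 1 was at least 2-fold lower in both, and 58 were within 2-fold in both. Among the 208 genes, 123 were at least 2-fold lower in EpiLC and within 2-fold in mESC, 10 were at least 2-fold higher in mESC and within 2-fold in EpiLC, 5 were at least 2-fold lower in both states, and 70 were within 2-fold in both. No gene was at least 2-fold higher in one state and at least 2-fold lower in the other (0 of 22180 genes), and 47 genes (0.212%) had responses of opposite sign that were each 0.5 or more in size. The responses differed at least 4-fold in 68 genes on the positive side (0.307%) and 24 on the negative side (0.108%).

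**Figure D1:**
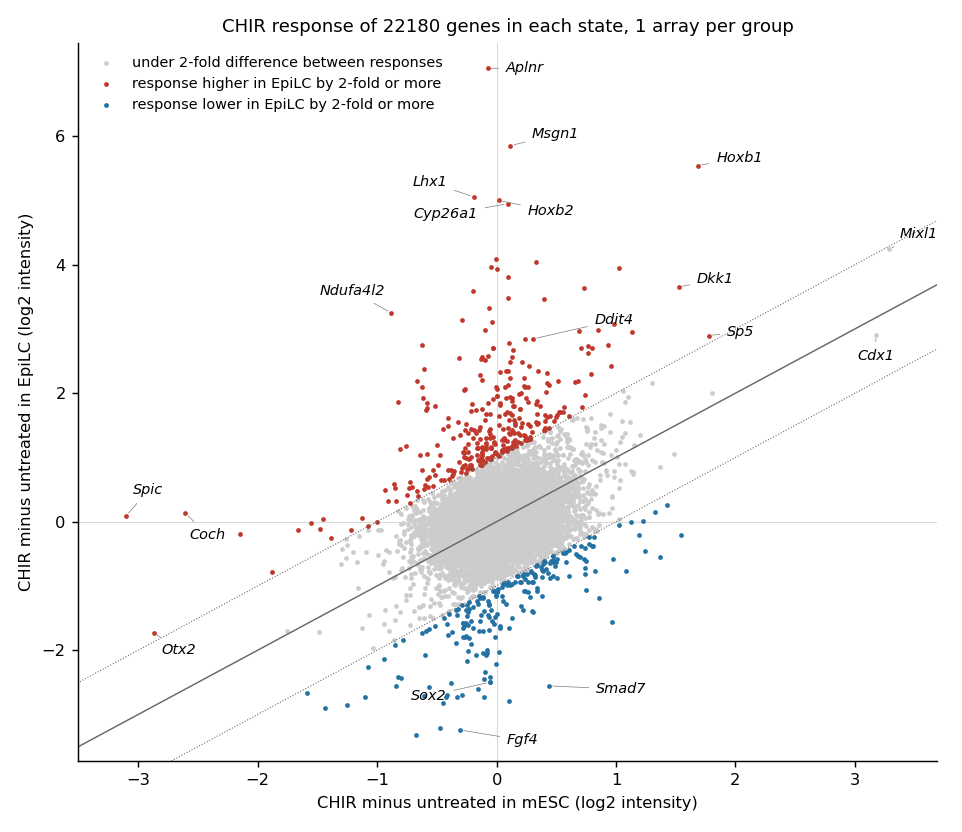
CHIR response of each gene in mESC (horizontal axis) and in EpiLC (vertical axis), both as log2 intensity under CHIR minus untreated, with 1 array per group. The solid line marks equal responses and the dotted lines a 2-fold difference between them. The 320 red genes lie mostly along the vertical axis, with Aplnr at 7.06 in EpiLC and -0.07 in mESC, whereas Spic and Coch lie far left because their values were lower in mESC alone.

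Several genes of the presomitic mesoderm were among the 20 highest differences, with Msgn1 second after Aplnr. Msgn1, a basic helix-loop-helix factor that drives epiblast cells into presomitic mesoderm, was at 3768 with CHIR and 65.2 without it in EpiLC, against 55.7 with CHIR and 51.4 without it in mESC. Only the CHIR-treated EpiLC array stood high, and the responses differed by 5.74 on the log2 scale. The T-box factor gene Tbx6, which directs cells to a paraxial mesoderm fate, was at 816 (CHIR) and 52.5 (untreated) in EpiLC, against 60.2 (CHIR) and 62.2 (untreated) in mESC. Foxc1, a forkhead factor of paraxial mesoderm, was at 1164 in CHIR-treated EpiLC and 76.0 in untreated EpiLC, against 81.0 in CHIR-treated mESC and 80.6 in untreated mESC. Tbx6 and Foxc1 were thus high on the same single array as Msgn1, with differences of 4.003 and 3.93. Of 22 paraxial and presomitic genes measured, 10 had a difference of 1 or more (1.44% of all genes) and 2 of -1 or less (0.938%). Their median was 0.71, against -0.02 over all genes. One of the 10, Ripply1, was there because its level was lower under CHIR in mESC. Rspo3, which encodes an enhancer of Wnt signalling made by presomitic mesoderm, was at 708 with CHIR and 45.9 without it in EpiLC, against 91.9 with CHIR and 45.1 without it in mESC, and its difference was 2.92. The Notch ligand gene Dll3 was already high in untreated EpiLC, with 1177 (CHIR) and 209.7 (untreated) in EpiLC, against 53.8 (CHIR) and 46.5 (untreated) in mESC. The somite genes Tcf15 and Meox1 were the members with a difference of -1 or less. Tcf15 was lower under CHIR in both states (-1.84 in EpiLC and -0.78 in mESC), and Meox1 was at 67.3 in CHIR-treated EpiLC and 79.1 in untreated EpiLC, against 83.2 in CHIR-treated mESC and 47.2 in untreated mESC. Hes7, the oscillator of the segmentation clock, had a response of -0.19 in EpiLC and -0.13 in mESC. Because these are bulk cultures, more cells of a type and more RNA per cell cannot be told apart.

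**Figure D2:**
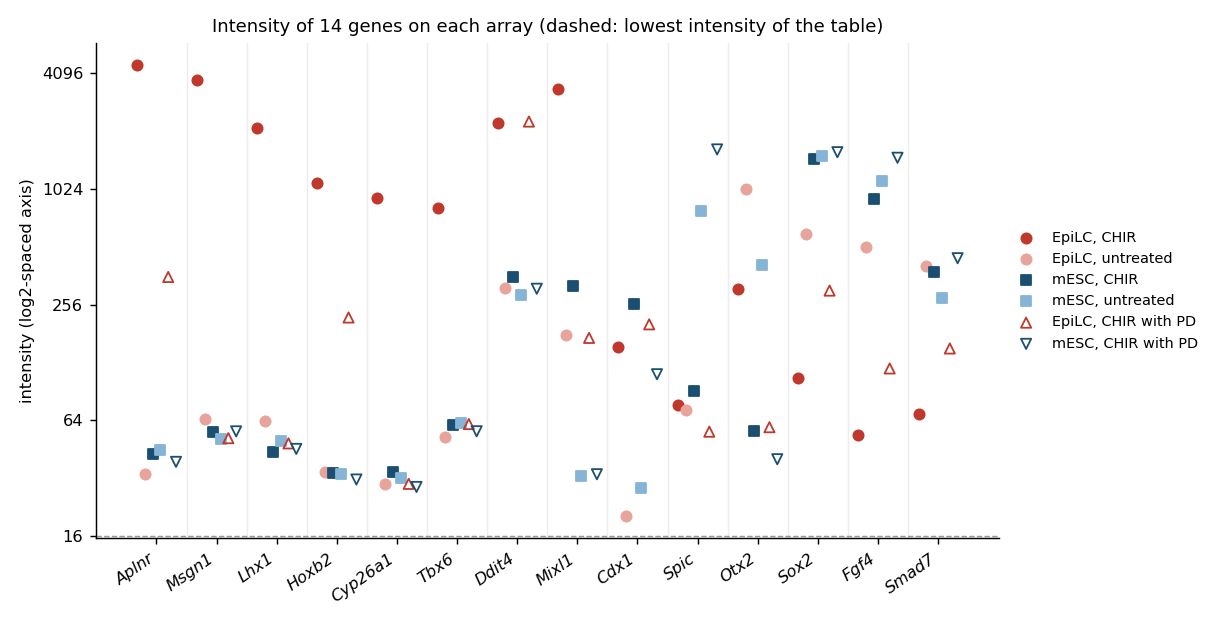
Intensity of 14 genes on each of the 6 arrays, on a log2-spaced axis, with EpiLC in red, mESC in blue and the arrays with CHIR and PD as open triangles. From Aplnr to Tbx6 the CHIR-treated EpiLC array stands alone at the top, Mixl1 and Cdx1 are higher under CHIR in both states, and Spic, Otx2, Sox2, Fgf4 and Smad7 are lower under CHIR in one state or both.

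The promoter windows of 3 genes are shown because they hold motifs of the 2 pathways, Wnt and retinoic acid, whose genes are described beside them. The windows are those of RefSeq on GRCm38.p6, from 250 bases before the gene start to 50 bases after it, in the direction of the gene. Msgn1 was higher under CHIR in EpiLC only, and Sp5, a direct Wnt target, was at least 2-fold higher in both states and further so in EpiLC. Capitals mark the TCF/LEF motif CTTTGAT on either strand in Msgn1 and Sp5. In Cyp26a1, which encodes the enzyme that degrades retinoic acid, capitals mark a retinoic acid response element, searched as AGTTCA, any 5 bases and AGTTCA again, on either strand.
Msgn1 promoter, chr12:11208899-11209198, minus strand: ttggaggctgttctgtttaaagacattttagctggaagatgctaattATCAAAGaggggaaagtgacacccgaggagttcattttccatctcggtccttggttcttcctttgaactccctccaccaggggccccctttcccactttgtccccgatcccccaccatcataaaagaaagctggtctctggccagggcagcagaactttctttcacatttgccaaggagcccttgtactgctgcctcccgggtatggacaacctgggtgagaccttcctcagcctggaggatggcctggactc
Sp5 promoter, chr2:70474673-70474972, plus strand: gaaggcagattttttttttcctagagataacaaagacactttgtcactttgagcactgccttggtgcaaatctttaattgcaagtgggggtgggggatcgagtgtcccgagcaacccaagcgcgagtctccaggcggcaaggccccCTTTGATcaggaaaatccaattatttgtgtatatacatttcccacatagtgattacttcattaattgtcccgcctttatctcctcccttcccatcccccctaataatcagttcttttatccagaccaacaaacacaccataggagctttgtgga
Cyp26a1 promoter, chr19:37697558-37697857, plus strand: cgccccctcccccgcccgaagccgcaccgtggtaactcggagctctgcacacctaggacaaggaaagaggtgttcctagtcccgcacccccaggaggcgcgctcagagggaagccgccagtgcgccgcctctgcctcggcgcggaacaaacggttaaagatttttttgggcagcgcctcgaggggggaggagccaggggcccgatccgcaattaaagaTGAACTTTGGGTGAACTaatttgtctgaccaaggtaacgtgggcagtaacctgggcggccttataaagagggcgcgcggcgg
The match lay 203 to 197 bases before the gene start in Msgn1, 104 to 98 bases before it in Sp5, and 32 to 16 bases before it in Cyp26a1. Windows on a single chromosome were left out of the search, so the shares that follow are not of the whole genome. The TCF/LEF letters were present in 3.73% of the 32851 promoter windows searched. They were present in 15 of 313 windows (4.79%) of genes with a difference of 1 or more. Among genes with a difference of -1 or less, 3 of 195 windows (1.54%) held them. The retinoic acid letters were present in 8 of the same windows (0.0244%). Among windows of genes with a difference of 1 or more they were present in 1 of 313 (0.319%), that of Cyp26a1. Among those with a difference of -1 or less they were present in 0 of 195. Only these exact letters were searched, so the shares do not cover other spellings of the element. A match describes the letters of the window and is not evidence of a used site.

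Streak, endoderm and lateral mesoderm genes were also counted in EpiLC, with members of each list that differed little. Lhx1, a LIM homeobox factor of nascent mesoderm, was at 2121 in CHIR-treated EpiLC and 63.7 in untreated EpiLC, against 43.8 in CHIR-treated mESC and 50.1 in untreated mESC. The streak genes Evx1, Wnt3a, Gsc and Snai1 had differences of 1.99, 1.80, 1.38 and 1.31. Of 12 streak genes, 7 had a difference of 1 or more (1.44% of all genes) and 0 of -1 or less (0.938%), with a median of 1.08. Mixl1, a homeobox gene of the streak, was at 3378 with CHIR and 179 without it in EpiLC, against 321 with CHIR and 33.0 without it in mESC. It was higher under CHIR in both states, by 4.24 in EpiLC and 3.28 in mESC, so its difference of 0.96 lay just below the threshold. Eomes, which instructs definitive endoderm and early mesoderm, was at 389.9 (CHIR) and 345 (untreated) in EpiLC, against 57.0 (CHIR) and 55.5 (untreated) in mESC, so that its level went with the state and was nearly equal with and without CHIR.

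In the endoderm list, 5 of 13 genes had a difference of 1 or more (1.44% of all genes) and 0 of -1 or less (0.938%), with a median of 0.38. Cer1, a secreted antagonist of Nodal, Wnt and BMP, was at 460.01 in CHIR-treated EpiLC and 58.4 in untreated EpiLC, against 46.5 in CHIR-treated mESC and 49.8 in untreated mESC. Gata6, which mesoderm expresses as well, had a difference of 2.61, Foxa1 one of 2.04 and Cxcr4 one of 1.43. Foxa2 was at 311 with CHIR and 175 without it in EpiLC, against 118 with CHIR and 139 without it in mESC. Its difference was 1.07. Sox17, a defining endoderm factor, was at 236 with CHIR and 162 without it in EpiLC, against 151 with CHIR and 134 without it in mESC, and the liver and yolk sac genes Afp and Ttr were at 63.3 and 45.2 in CHIR-treated EpiLC, below the median gene of that array (78.56). The summed intensity of the list was 3466 in CHIR-treated EpiLC and 2118 in untreated EpiLC, against 1499 in CHIR-treated mESC and 1532 in untreated mESC, and the part of endoderm-like cells in the results was not tested.

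Aplnr, which encodes the receptor of apelin, had the largest difference of all genes, 7.13. Its intensity was 4485 (CHIR) and 33.7 (untreated) in EpiLC, against 42.8 (CHIR) and 45.0 (untreated) in mESC, and the 3 lower values lay under the median gene. The ligand gene Apln was at 5177 in CHIR-treated EpiLC and 878 in untreated EpiLC, against 92.3 in CHIR-treated mESC and 84.2 in untreated mESC, so that receptor and ligand were both highest on the CHIR-treated EpiLC array. Pdgfra, a receptor of nascent mesoderm, was at 224 with CHIR and 18.0 without it in EpiLC, against 43.2 with CHIR and 26.1 without it in mESC, and Kdr, which marks the earliest vascular and cardiac mesoderm, had a smaller difference of 1.07. In all, 4 of 23 lateral, cardiac and vascular genes had a difference of 1 or more (1.44% of all genes) and 1 of -1 or less (0.938%). Their median was 0.09. Later genes without a difference of 1 went both ways under CHIR. Nkx2-5 (99.6 in CHIR-treated EpiLC, 146 in untreated EpiLC) and Hand2 (45.1 in CHIR-treated EpiLC, 43.1 in untreated EpiLC) were lower or nearly equal, while Isl1 (117 in CHIR-treated EpiLC, 70.7 in untreated EpiLC) and Flt1 (169.5 in CHIR-treated EpiLC, 108 in untreated EpiLC) were higher, with differences of 0.78 and 0.52. Pecam1, the 1 member with a difference of -1 or less, is expressed by stem cells as well as endothelium and was at 39.8 (CHIR) and 79.1 (untreated) in EpiLC, against 402 (CHIR) and 372 (untreated) in mESC.

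Among the Hox genes, a pair of neighbours at the start of the Hoxb cluster stood out. Hoxb2 was at 1102 in CHIR-treated EpiLC and 34.4 in untreated EpiLC, against 34.1 in CHIR-treated mESC and 33.7 in untreated mESC, a difference of 4.98. Its neighbour Hoxb1 was at 2008 with CHIR and 43.0 without it in EpiLC, against 87.7 with CHIR and 27.2 without it in mESC. Hoxb1 was thus at least 2-fold higher in both states, with a response of 5.54 in EpiLC and 1.69 in mESC. From Hoxb3 to Hoxb9 and Hoxb13 the differences lay between -0.42 and 0.42. Over 36 Hox genes (median 0.00), 2 had a difference of 1 or more (1.44% of all genes) and 1 of -1 or less (0.938%). That one was Hoxd9, with 25.2 (CHIR) and 22.8 (untreated) in EpiLC, against 57.5 (CHIR) and 22.9 (untreated) in mESC, all dim values. The caudal genes Cdx1 and Cdx2, homeobox factors that act upstream of posterior Hox genes, were higher under CHIR in both states. Cdx1 was at 153 in CHIR-treated EpiLC and 20.4 in untreated EpiLC, against 258 in CHIR-treated mESC and 28.6 in untreated mESC, and its responses of 2.91 in EpiLC and 3.17 in mESC were alike in size. Cdx2 was at 143 with CHIR and 31.97 without it in EpiLC, against 273 with CHIR and 111 without it in mESC, and it responded by 2.16 in EpiLC and 1.30 in mESC, a difference of 0.86 from an untreated level that was lower in EpiLC. Cdx4 responded by -0.01 in EpiLC and 0.50 in mESC.

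Of 16 genes of retinoic acid metabolism and response (median 0.05), 3 had a difference of 1 or more (1.44% of all genes) and 0 of -1 or less (0.938%). Cyp26a1, which degrades retinoic acid and whose promoter is printed above, was at 917 (CHIR) and 29.7 (untreated) in EpiLC, against 34.4 (CHIR) and 32.3 (untreated) in mESC. Aldh1a2, which makes retinoic acid in the trunk mesoderm, had a difference of 1.92, and the binding protein gene Crabp2 one of 1.65.

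Many feedback genes of the Wnt pathway were higher under CHIR in both states. Of 17 measured, 8 were at least 2-fold higher under CHIR in EpiLC (1.77% of all genes were) and 5 in mESC (0.185% of all genes), with Cdx1, Dkk1, Sp5 and Tnfrsf19 in both counts. The list had median responses of 0.90 in EpiLC and 0.54 in mESC. Its differences were 1 or more in 4 genes (1.44% of all genes) and -1 or less in 0 (0.938%), with a median of 0.22. Axin2, a scaffold of the destruction complex and a feedback gene, was at 307 in CHIR-treated EpiLC and 165 in untreated EpiLC, against 368 in CHIR-treated mESC and 182 in untreated mESC. Its responses were 0.90 in EpiLC and 1.02 in mESC, and those of Tnfrsf19 were 1.32 in EpiLC and 1.05 in mESC. Znrf3, a ubiquitin ligase that removes Wnt receptors, responded by 0.46 in EpiLC and 0.40 in mESC. Axin2, Znrf3 and Tnfrsf19 therefore differed by less than 0.3 between the states. The 4 that did separate them were Dkk1, Sp8, Nkd1 and Sp5. Dkk1, a secreted inhibitor of the Wnt co-receptor, was at 559 with CHIR and 44.5 without it in EpiLC, against 355 with CHIR and 124 without it in mESC. Untreated EpiLC had the lowest of these values, and CHIR-treated EpiLC the highest. Sp8, a zinc finger factor of the same family as Sp5, was at 479 (CHIR) and 101 (untreated) in EpiLC, against 80.2 (CHIR) and 68.5 (untreated) in mESC, and Nkd1, which acts on Dishevelled, was at 344 in CHIR-treated EpiLC and 75.03 in untreated EpiLC, against 74.1 in CHIR-treated mESC and 46.1 in untreated mESC. Sp5 was at 335 with CHIR and 45.0 without it in EpiLC, against 239 with CHIR and 69.8 without it in mESC, with responses of 2.90 in EpiLC and 1.78 in mESC.

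**Figure D3:**
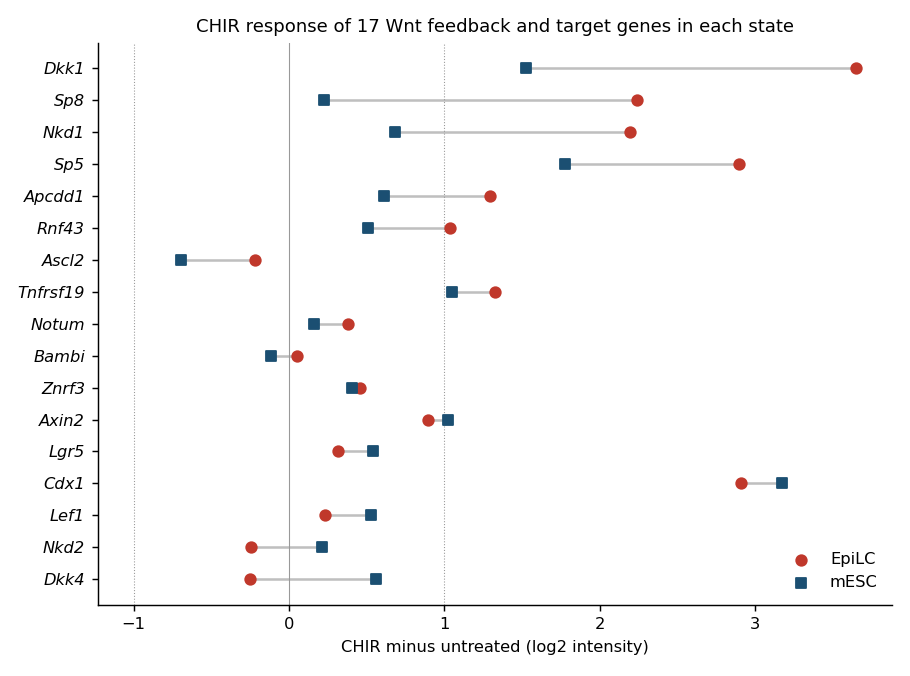
CHIR response (log2 intensity under CHIR minus untreated) of 17 Wnt feedback and target genes in EpiLC (red circles) and mESC (blue squares), ordered by the difference. Dkk1, Sp8, Nkd1 and Sp5 are further right in EpiLC by 1 or more, and 6 genes, from Axin2 down to Dkk4, are further right in mESC by less than 1.

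Components that carry the signal included no counted gene. Among 14 genes of beta-catenin, the TCF factors, Groucho corepressors and the destruction complex, 0 had a difference of 1 or more and 0 of -1 or less (median -0.05). The shares over all genes were 1.44% and 0.938%, so 0 of 14 does not set this list apart. The repressor gene Tcf7l1 was lower under CHIR in both states, and was at 357 (CHIR) and 924 (untreated) in EpiLC, against 537 (CHIR) and 1029 (untreated) in mESC. The corepressor gene Tle4 responded by -1.17 in EpiLC and -0.47 in mESC, and Tle3 by 0.86 in EpiLC and 0.20 in mESC. Among 35 Wnt ligands, receptors and secreted modulators (median -0.02), 4 had a difference of 1 or more (1.44% of all genes). Frzb, a secreted Wnt-binding inhibitor, was at 328 in CHIR-treated EpiLC and 27.2 in untreated EpiLC, against 24.8 in CHIR-treated mESC and 28.4 in untreated mESC. The others were Rspo3 and the ligand genes Wnt3a (1.80) and Wnt5a (1.34), and Wnt5a was at 496 with CHIR and 155 without it in EpiLC, against 211 with CHIR and 167 without it in mESC.

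Notch, guidance and adhesion genes included further members with a stronger response in EpiLC. Of 21 Notch genes (median 0.14), 4 had a difference of 1 or more (1.44% of all genes) and 0 of -1 or less (0.938%). The 4 were Dll3, Notch1 (1.29), Hes1 (1.26) and Dll1 (1.05). Hes1, the effector of the pathway, was at 667 (CHIR) and 232 (untreated) in EpiLC, against 259 (CHIR) and 216 (untreated) in mESC. The 2 probes of Dll1 disagreed, with differences of 1.67 and 0.44. Of 19 ephrin and guidance genes (median 0.39), 5 had a difference of 1 or more (1.44% of all genes) and 0 of -1 or less (0.938%). The secreted cues Slit2 and Ntn1 had differences of 2.15 and 1.81, and Ntn1 was at 489.5 in CHIR-treated EpiLC and 73.1 in untreated EpiLC, against 643 in CHIR-treated mESC and 337 in untreated mESC. Epha4 was at 207 with CHIR and 65.9 without it in EpiLC, against 482 with CHIR and 475 without it in mESC, so that the CHIR-treated EpiLC array lay nearer to the 2 mESC arrays. Outside the lists, Plxna2, which encodes a semaphorin receptor, was at 730.1 (CHIR) and 43.1 (untreated) in EpiLC, against 48.5 (CHIR) and 48.6 (untreated) in mESC.

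Among 16 genes of cadherins and epithelial-mesenchymal transition (median 0.38), 5 had a difference of 1 or more (1.44% of all genes) and 0 of -1 or less (0.938%). Cdh2 (N-cadherin) was at 1554 in CHIR-treated EpiLC and 253 in untreated EpiLC, against 227 in CHIR-treated mESC and 134 in untreated mESC, and Cdh11, a mesenchymal cadherin, at 309.8 with CHIR and 53.3 without it in EpiLC, against 40.7 with CHIR and 44.6 without it in mESC. Fn1 (fibronectin) had a difference of 1.504, and Snai1, a repressor of E-cadherin, one of 1.31. The epithelial gene Cldn4 was in the same group and was at 1124 (CHIR) and 354 (untreated) in EpiLC, against 911 (CHIR) and 642 (untreated) in mESC. Cdh1 (E-cadherin) itself was at 753 in CHIR-treated EpiLC and 859 in untreated EpiLC, against 699 in CHIR-treated mESC and 786 in untreated mESC, and Epcam at 849.6 with CHIR and 1053 without it in EpiLC, against 688 with CHIR and 780.1 without it in mESC. Markers of the transition and of epithelium were therefore present together in CHIR-treated EpiLC.

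Core pluripotency genes had the lowest median of all 32 lists. Of 13 measured (median -0.91), 6 had a difference of -1 or less (0.938% of all genes) and 0 of 1 or more (1.44%). The median responses were -1.54 in EpiLC and -0.24 in mESC. Sox2, a factor that pairs with Oct4, was at 106 (CHIR) and 599 (untreated) in EpiLC, against 1459.6 (CHIR) and 1514 (untreated) in mESC. Fgf4, a target of Oct4 and Sox2 and an ERK-activating ligand, was at 53.7 in CHIR-treated EpiLC and 508 in untreated EpiLC, against 909.5 in CHIR-treated mESC and 1125 in untreated mESC. In both genes the CHIR-treated EpiLC array was far below the other 3, and the differences were -2.44 and -2.93. Gdf3, a ligand of the TGF-beta family, was at 71.99 with CHIR and 440.02 without it in EpiLC, against 687 with CHIR and 767 without it in mESC. Dppa2, Utf1 and L1td1 had differences of -2.13, -2.10 and -1.58. Unlike Sox2, the other core factor genes Pou5f1 and Nanog did not reach the threshold, with differences of -0.43 and -0.56, and Nanog was at 496 (CHIR) and 709 (untreated) in EpiLC, against 2179.6 (CHIR) and 2118 (untreated) in mESC.

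Naive genes summed to 1974 in CHIR-treated EpiLC and 1538 in untreated EpiLC, against 13255 in CHIR-treated mESC and 13025 in untreated mESC. Of 15 (median -0.40), Spic alone had a difference of 1 or more (1.44% of all genes) and Nr0b1 alone one of -1 or less (0.938%). The nuclear receptor gene Nr0b1 was at 23.4 in CHIR-treated EpiLC and 63.5 in untreated EpiLC, against 1559 in CHIR-treated mESC and 1559.8 in untreated mESC, and both EpiLC values lay below the median gene. Tbx3 and Tfcp2l1 were higher under CHIR in mESC (0.78 and 0.70), with responses of 0.07 and 0.20 in EpiLC. Gbx2, an average of 2 probes, had a difference of 0.93, but its probes gave 0.18 and 1.68.

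Formative genes had a median response of -0.94 in EpiLC and -0.31 in mESC. Of 14 measured, 7 were at least 2-fold lower in EpiLC (0.929% of all genes were) and 1 in mESC (0.153% of all genes). A difference of 1 or more was present in 2 (1.44% of all genes) and one of -1 or less in 3 (0.938%). The median difference was -0.55. Dnmt3b, a de novo DNA methyltransferase, was at 1279 with CHIR and 4847 without it in EpiLC, against 1289 with CHIR and 2327 without it in mESC, so that the 2 states were level under CHIR. Pou3f1, a POU factor of the epiblast, was at 123 (CHIR) and 538 (untreated) in EpiLC, against 63.7 (CHIR) and 122 (untreated) in mESC. Otx2, a factor of the anterior epiblast, had a positive difference (1.14) although it was lower under CHIR in both states, and was at 309.7 in CHIR-treated EpiLC and 1025 in untreated EpiLC, against 56.2 in CHIR-treated mESC and 410.5 in untreated mESC. On the log2 scale its response was -1.73 in EpiLC and -2.87 in mESC, and on linear intensities the difference had the opposite sign (-361.19). In DNA methylation genes (median -0.41), 2 of 8 had a difference of -1 or less (0.938% of all genes) and 1 of 1 or more (1.44%). Tet1, which oxidises methylcytosine, was at 296 with CHIR and 909 without it in EpiLC, against 1536 with CHIR and 1852 without it in mESC. Germline genes, many of which are silenced by DNA methylation, had a median of -0.58 with 2 of 10 at -1 or less (0.938% of all genes). Dazl was at 30.9 (CHIR) and 97.6 (untreated) in EpiLC, against 133 (CHIR) and 130.2 (untreated) in mESC, and Hormad1 was at 18.1 in CHIR-treated EpiLC and 49.4 in untreated EpiLC, against 99.7 in CHIR-treated mESC and 126 in untreated mESC.

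Ligands and inhibitors of the Activin, BMP and FGF pathways had differences in both directions. In the Activin and Nodal list (median 0.29), 2 of 16 genes had a difference of 1 or more (1.44% of all genes) and 2 of -1 or less (0.938%). Smad7, an inhibitory Smad induced by the pathway itself, had the lowest difference of all genes, -3.00, and was at 69.3 with CHIR and 408 without it in EpiLC, against 376 with CHIR and 277 without it in mESC. Lefty1, an inhibitor of Nodal, responded by -0.76 in EpiLC and 0.82 in mESC, whereas Lefty2 was higher in both (1.25 in EpiLC and 1.03 in mESC). Lefty1 and Lefty2 are close paralogues, and how far their probes share signal was not tested. Nodal itself was at 374 (CHIR) and 398 (untreated) in EpiLC, against 171 (CHIR) and 273 (untreated) in mESC. Fst (follistatin, which binds Activin) was at 4127 in CHIR-treated EpiLC and 1124 in untreated EpiLC, against 228 in CHIR-treated mESC and 209 in untreated mESC, and Tgfb1 had a difference of 1.07.

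In the BMP list (median 0.19), 2 of 16 genes had a difference of 1 or more (1.44% of all genes) and 1 of -1 or less (0.938%). The ligand gene Bmp7 was at 577 with CHIR and 88.8 without it in EpiLC, against 138 with CHIR and 78.9 without it in mESC. The target genes Id1 and Id2 parted, and Id1 was at 119 (CHIR) and 57.2 (untreated) in EpiLC, against 989 (CHIR) and 1480.2 (untreated) in mESC, while Id2 was at 82.2 in CHIR-treated EpiLC and 248 in untreated EpiLC, against 583 in CHIR-treated mESC and 776 in untreated mESC. On linear intensities, where the brighter mESC values weigh more, the Id2 difference had the opposite sign. Among 12 FGF ligands and receptors, 1 (Fgf8, 1.04) had a difference of 1 or more, and 2 (Fgf4 and Fgf15) had one of -1 or less. The shares over all genes were 1.44% and 0.938%. Fgf8, a ligand of the streak, was at 286 with CHIR and 91.3 without it in EpiLC, against 41.3 with CHIR and 27.2 without it in mESC. Fgf15 is an average of 2 probes that gave -0.57 and -2.15. Targets of ERK had a median of 0.06, and 1 of 16, the immediate early gene Fos, had a difference of 1 or more (1.44% of all genes). In the LIF-STAT3 list 1 of 10 had a difference of -1 or less (0.938% of all genes), the kinase gene Pim1 (-1.16).

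Stress and metabolic lists shifted by small amounts in many members. Ddit4, an inhibitor of mTORC1 induced by several stresses, was at 2255 (CHIR) and 314 (untreated) in EpiLC, against 355 (CHIR) and 287 (untreated) in mESC. It was also at 2286 in EpiLC with CHIR and PD and 309 in mESC with CHIR and PD, so both EpiLC arrays with CHIR were high. Among 20 amino acid and ER stress genes, 19 had a difference above 0 (median 0.35, against -0.02 over all genes). A difference of 1 or more was present in 3 (1.44% of all genes), namely Ddit4, Nupr1 (1.21) and Vldlr (1.18). The classical members Atf4, Ddit3 and Asns had differences of 0.34, 0.35 and 0.41. Of 14 glycolysis and hypoxia genes, 13 had a difference above 0. Bnip3 (1.09) was the 1 gene at 1 or more (1.44% of all genes). The median of the list was 0.57, against -0.02 over all genes. The median responses behind it were 0.60 in EpiLC and -0.08 in mESC. Outside the list, Ndufa4l2, a mitochondrial protein gene induced by hypoxia, was at 334 in CHIR-treated EpiLC and 35.1 in untreated EpiLC, against 56.6 in CHIR-treated mESC and 104 in untreated mESC.

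Cell cycle, p53 and cholesterol genes contained few counted members. Ccnd2 (cyclin D2) was at 992 with CHIR and 227 without it in EpiLC, against 214 with CHIR and 157 without it in mESC. Its difference was 1.68 and that of Cdk6 was -1.06, and these were the 2 such members of 15 G1 genes. Over all genes the shares were 1.44% for 1 or more and 0.938% for -1 or less. Mycn was lower under CHIR in both states (-1.96 in EpiLC and -1.03 in mESC), as was Myc (-1.38 in EpiLC and -0.69 in mESC). Cdkn1a, a CDK inhibitor, was higher in both (1.38 in EpiLC and 1.07 in mESC). No p53 target (0 of 13), cholesterol gene (0 of 10), ribosomal protein gene (0 of 13), neuroectoderm gene (0 of 12) or fibroblast marker (0 of 10) had a difference of 1 or more or of -1 or less. Over all genes 1.44% had a difference of 1 or more and 0.938% one of -1 or less. With such low shares, a count of 0 does not set these short lists apart. Fibroblast markers, which would show feeder cells, summed to 831.8 in CHIR-treated EpiLC and 1232 in untreated EpiLC, against 717.7 in CHIR-treated mESC and 817.9 in untreated mESC. Their part in the results was not tested. In the trophoblast list 1 of 12 had a difference of 1 or more (1.44% of all genes), the keratin gene Krt19. It was at 588 (CHIR) and 125 (untreated) in EpiLC, against 198 (CHIR) and 183 (untreated) in mESC. The defining genes Elf5 and Gata3 were at 62.1 and 58.4 in CHIR-treated EpiLC, below the median gene of that array. Cdx2, a defining gene as well, was at 143 in CHIR-treated EpiLC and 31.97 in untreated EpiLC, against 273 in CHIR-treated mESC and 111 in untreated mESC. In the trophoblast list, 11 of the 12 members had a difference above 0 (median 0.29, against -0.02 over all genes). That list summed to 2798 in CHIR-treated EpiLC and 1349 in untreated EpiLC, against 3115 in CHIR-treated mESC and 2899 in untreated mESC, and its part in the results was not tested.

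**Figure D4:**
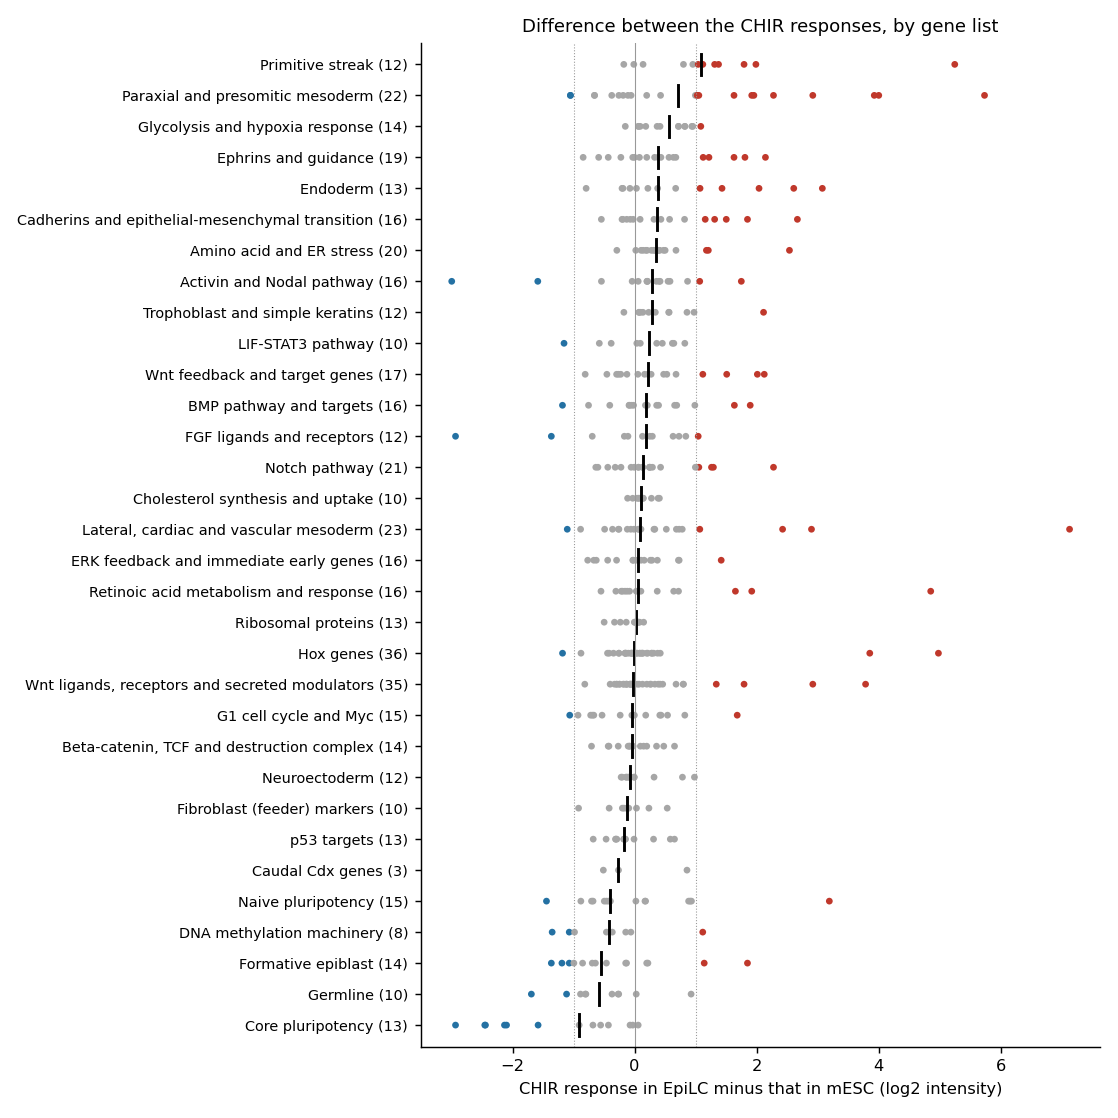
CHIR response in EpiLC minus that in mESC (log2 intensity, horizontal axis) for the measured members of 32 gene lists, with the number measured in brackets. Points are genes, red at 1 or more and blue at -1 or less, and black bars are list medians, from 1.08 for primitive streak to -0.91 for core pluripotency.

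Most of the 20 highest and 20 lowest differences outside the lists came from EpiLC. Pknox2, a homeobox factor of the TALE class, was at 706 with CHIR and 81.5 without it in EpiLC, against 87.3 with CHIR and 89.7 without it in mESC. Cd36, a fatty acid receptor, was at 414 (CHIR) and 37.1 (untreated) in EpiLC, against 40.0 (CHIR) and 37.5 (untreated) in mESC, and the fatty acid binding protein gene Fabp7 was at 901 in CHIR-treated EpiLC and 89.4 in untreated EpiLC, against 87.2 in CHIR-treated mESC and 91.1 in untreated mESC. In these genes, as in Chst7 (3.72), which encodes a sulfotransferase, and the choline transporter-like gene Slc44a5 (3.72), CHIR-treated EpiLC was the highest of the 4 arrays. Rasgrp3, an activator of Ras, was at 259 with CHIR and 38.4 without it in EpiLC, against 30.5 with CHIR and 47.0 without it in mESC.

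On the lower side, the adhesion genes Kirrel2 and Nphs1, known from the filtration barrier of the kidney, had differences of -2.89 and -2.21. Kirrel2 was at 26.6 (CHIR) and 184 (untreated) in EpiLC, against 179.6 (CHIR) and 167 (untreated) in mESC, and Nphs1 was at 23.3 in CHIR-treated EpiLC and 108 in untreated EpiLC, against 167 in CHIR-treated mESC and 168 in untreated mESC. Cnpy1 was at 72.5 with CHIR and 214 without it in EpiLC, against 445 with CHIR and 228 without it in mESC, and Far2, which reduces fatty acyl groups to alcohols, was at 41.4 (CHIR) and 209 (untreated) in EpiLC, against 41.3 (CHIR) and 44.1 (untreated) in mESC. Aadat, an aminotransferase of lysine and kynurenine metabolism, was at 31.9 in CHIR-treated EpiLC and 207 in untreated EpiLC, against 28.8 in CHIR-treated mESC and 35.2 in untreated mESC. The remaining ones (Platr10, H2bc1, Mup6, Tmem54, Fam131b and Zfp985) had differences between -2.73 and -2.28. Mup6 and Zfp985 belong to multigene families, and how far their probes share signal with near-identical copies was not tested.

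Some differences arose in mESC. There were 41 genes that stood 2-fold or more from the untreated level in mESC and within 2-fold in EpiLC, 19 higher and 22 lower, and 22 of the 41 also had a difference of at least 1 in either direction. Spic, an Ets family factor gene, was at 77.1 with CHIR and 72.4 without it in EpiLC, against 91.5 with CHIR and 785 without it in mESC, and Coch was at 69.2 (CHIR) and 63.2 (untreated) in EpiLC, against 107 (CHIR) and 650.2 (untreated) in mESC. Ripply1, a repressor that acts with T-box factors in somites, was at 84.2 in CHIR-treated EpiLC and 96.3 in untreated EpiLC, against 95.8 in CHIR-treated mESC and 425 in untreated mESC. In these 3 genes untreated mESC was the high array of the comparison, and CHIR-treated mESC came close to the 2 EpiLC arrays. On the mESC array with CHIR and PD, Coch (63.45) and Ripply1 (86.44) were low as well, but Spic was at 1637.56, above its untreated level. The low Spic value under CHIR was thus not repeated with CHIR and PD, and the part of PD in this was not tested. Lgals9, which encodes a galectin, was at 131 with CHIR and 141 without it in EpiLC, against 419.8 with CHIR and 1169.5 without it in mESC, and Zscan4c, a gene of rare 2-cell-like cells, was at 78.2 (CHIR) and 93.4 (untreated) in EpiLC, against 94.1 (CHIR) and 246 (untreated) in mESC. In the other direction, Aqp3, a water and glycerol channel, was at 70.0 in CHIR-treated EpiLC and 58.8 in untreated EpiLC, against 1334 in CHIR-treated mESC and 496 in untreated mESC. Ct55 was at 37.8 with CHIR and 43.7 without it in EpiLC, against 137 with CHIR and 46.9 without it in mESC, and CHIR-treated mESC was its single high array.

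A set of genes was 2-fold or more away from the untreated level in both states. Of the 41 genes at least 2-fold higher under CHIR in mESC, 22 (53.7%) were so in EpiLC too, against 1.77% of all genes. These 22 made up 5.61% of the 392 such genes in EpiLC, and 0.185% of all genes were that much higher in mESC. Of the 34 genes at least 2-fold lower in mESC, 12 (35.3%) were so in EpiLC, against 0.929% of all genes. These 12 made up 5.83% of the 206 such genes in EpiLC, and 0.153% of all genes were that much lower in mESC. Of these 34 shared genes, 22 higher and 12 lower, 29 were further from the untreated level in EpiLC, and 23 had a difference within 1 in either direction. Besides Cdx1, Mixl1, Sp5 and Tnfrsf19 they included Lefty2, Cdkn1a and the homeobox gene Nkx1-2 (1.12 in EpiLC and 1.00 in mESC). On the lower side were Mycn and the kinase gene Pim2 (-1.70 in EpiLC and -1.76 in mESC). Nkx1-2 and Pim2 were chosen after their values were seen.

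Seen from the other side, the difference says how the gap between the states differed between the CHIR-treated and the untreated arrays. For 168 of the 320 genes with a positive difference, the untreated states lay within 2-fold and CHIR-treated EpiLC was at least 2-fold above CHIR-treated mESC, as for Aplnr, Msgn1 and Hoxb2. Of the 22180 genes, a gap of 2-fold or more was present under CHIR in 2.45% with EpiLC higher and in 2.63% with EpiLC lower. In the untreated pair it was present in 1.47% with EpiLC higher and 2.3% with EpiLC lower. For 52 of the 320 the untreated EpiLC were at least 2-fold below untreated mESC and the CHIR-treated states lay within 2-fold. Upp1, which encodes uridine phosphorylase, was at 578 (CHIR) and 65.3 (untreated) in EpiLC, against 445 (CHIR) and 545 (untreated) in mESC. The gap turned round at least 2-fold each way in 3 genes, one of which was Ndufa4l2. Among the 208 genes with a negative difference, a gap of 2-fold or more was present only under CHIR in 69 and only in the untreated pair in 37. The testis histone gene H2ac1 was at 184 in CHIR-treated EpiLC and 1843 in untreated EpiLC, against 327 in CHIR-treated mESC and 522 in untreated mESC. Slc35d3 was at 131 with CHIR and 872 without it in EpiLC, against 125 with CHIR and 135 without it in mESC, and Nefl, a neurofilament gene, was at 272 (CHIR) and 1445 (untreated) in EpiLC, against 372 (CHIR) and 387 (untreated) in mESC. In these 3 genes untreated EpiLC was the highest array, and H2ac1 and Nefl were higher on both mESC arrays than in CHIR-treated EpiLC. In another 43 genes an existing deficit of EpiLC widened, as in Sox2, Fgf4 and Nr0b1.

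**Figure D5:**
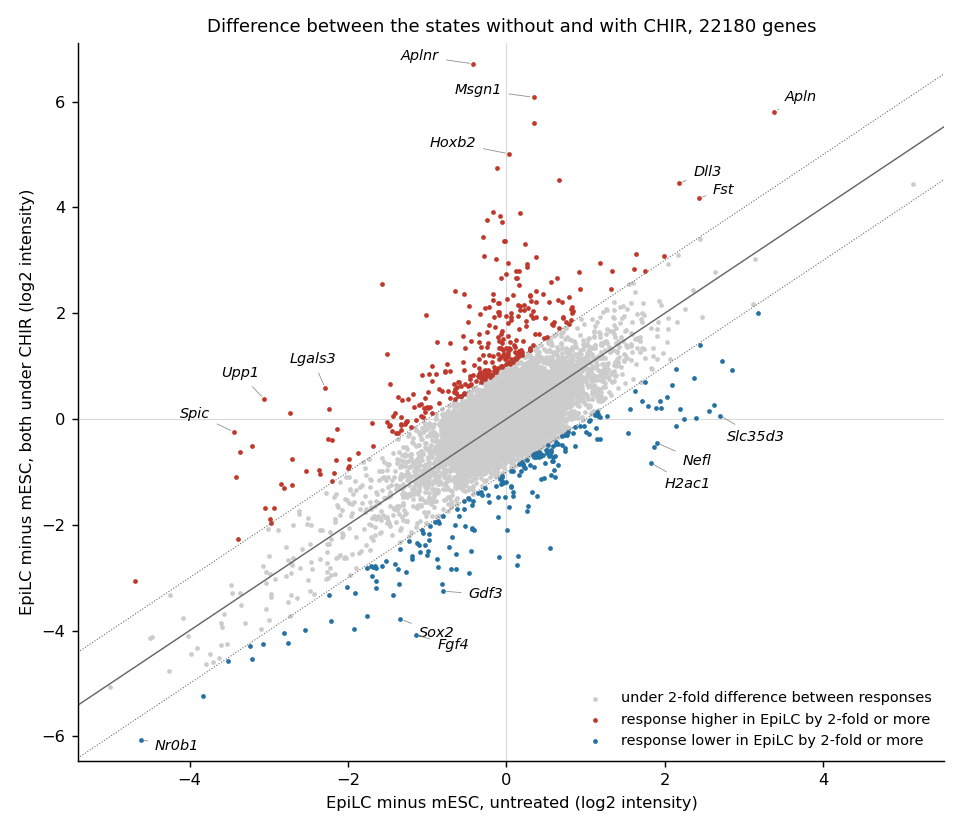
Log2 difference of EpiLC minus mESC, untreated (horizontal axis) and under CHIR (vertical axis), for 22180 genes. Points on the solid line had the same gap in both conditions, and the dotted lines mark a 2-fold change of the gap. Aplnr, Msgn1 and Hoxb2 had gaps of 6.71, 6.08 and 5.01 under CHIR, Upp1 had -3.06 untreated and 0.38 under CHIR, and Slc35d3 had 2.70 untreated and 0.06 under CHIR.

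The 2 arrays with CHIR and PD, which played no part in the selection, gave a further view of the 168 genes whose gap opened under CHIR. Under CHIR with PD, 82 of them were again at least 2-fold higher in EpiLC, against 3.29% of all genes, 84 were within 2-fold, and 2 were at least 2-fold lower. Hoxb2 was at 219 in EpiLC and 31.5 in mESC under both inhibitors, and Aplnr at 356 in EpiLC and 38.95 in mESC. Msgn1 was at 51.7 in EpiLC and 56.1 in mESC there, and Lhx1 at 48.6 in EpiLC and 45.5 in mESC. Tbx6, Foxc1 and Cyp26a1 were likewise below the median gene on both of those arrays. Of the 69 genes with an opened negative gap, 43 were at least 2-fold lower in EpiLC under both inhibitors too, against 3.11% of all genes.

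Low levels bear on the sizes given here. Of the 320 genes, 99 were below the median gene on both mESC arrays, where 48.1% of all genes were, and 20 were below it on both EpiLC arrays (47.0% of all genes). Of the 208 genes, 47 were so in mESC and 57 in EpiLC. The size of the difference of genes that are dim in mESC moved with the lowest intensity. With it shifted to 64, Aplnr had a difference of 5.83, Msgn1 one of 5.01, Hoxb2 one of 3.79 and Cyp26a1 one of 3.60. Just inside the threshold lay Upk1a (1.0004) and Kdm4c (-1.0025), and just outside it Fam160a1 (0.9991) and Cdk18 (-0.9988). Of 16 counted genes with more than 1 probe, all probes shared the sign in 16 and passed the threshold in 7. Over 1082 such genes the probes of a gene differed by a median of 0.26, which describes probes on the same arrays and not the spread between cultures.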

How the data were processed

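Each of 6 groups had 1 Mouse Gene 2.0 ST array, a 1-colour array of total RNA labelled with a whole-transcript kit per the labels' protocols. The deposited table gives 1 normalized intensity per probe on a linear scale, exported from GeneSpring GX 11.5 per the series' design text. The normalization method, the genome build and the array annotation release are not given in the sources used here, and scanner files were not analysed here. The table held 33793 probes with 0 missing values and no columns of other samples. Of the probes, 23521 had a single gene symbol in the platform annotation, 1814 had several and 8458 were not listed. Log2 intensities of the probes of a gene were averaged (22180 genes), and 23328 of the 23521 probes had a gene ID found in RefSeq. The difference of the CHIR responses was then taken per gene with pandas 2.3.3 and numpy 2.4.6 in Python 3.11.15, and figures were drawn with matplotlib 3.10.9. A difference of 1 (2-fold) was counted. There are no residual degrees of freedom, so no test, error or p-value is given. The calculation was tested on simulated data.

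Members and lists were chosen with earlier results of these data known. The 32 lists held 499 genes, of which 467 were measured; T and Tcf7 had no probe with a single symbol. Named were the 20 highest and 20 lowest differences, 4 markers, from each list the members with the largest differences (at most 5), and 10 genes 2-fold or more away from untreated in mESC alone, passing over predicted and small RNA genes (180 genes in all). Other list members were named for their role, with their values known. Promoters and gene order were RefSeq's on GRCm38.p6. The alternatives were another scaling or centring, the brightest probe per gene, a shifted lowest intensity and a filter on dim genes. Others were the direction on linear intensities, probes with several symbols included and a 4-fold threshold.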

Additional observations from a re-analysis of the deposited data

Results flagged for a closer look

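In 6 of the named genes the CHIR response had opposite signs in the 2 states, by at least 0.5 on the log2 scale in each. With 1 array per group, the difference was not tested. Ndufa4l2, a hypoxia-induced mitochondrial gene, responded by 3.25 in EpiLC and -0.88 in mESC, and Rasgrp3, an activator of Ras, by 2.75 in EpiLC and -0.62 in mESC. The BMP target Id1 responded by 1.06 in EpiLC and -0.58 in mESC, and the immediate early gene Fos by 0.80 in EpiLC and -0.62 in mESC. The opposite order was seen for Cnpy1, with -1.56 in EpiLC and 0.96 in mESC, and for the Nodal inhibitor Lefty1, with -0.76 in EpiLC and 0.82 in mESC. Over all genes, 47 (0.212%) had such opposite responses, 30 of them higher in EpiLC and 17 lower.

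Probes without a single gene symbol were outside the comparison, and 63 of 10272 of them had a difference of 1 or more and 87 one of -1 or less. Among the 22180 genes the counts were 320 (1.44%) and 208 (0.938%). Several of the lowest probes had near-identical values, such as 29.4, 28.8 and 28.55 in CHIR-treated EpiLC, and how far they share signal was not tested. The brightest value of the whole table was among the probes without a single symbol. A probe annotated to Sprr2a1, Sprr2a2, Sprr2a3 and Sprr2b, genes for cornified envelope proteins of squamous epithelium, was at 22998 in CHIR-treated EpiLC and 845 in untreated EpiLC, against 2939 in CHIR-treated mESC and 679.97 in untreated mESC, a difference of 2.65. It was at 4858 in EpiLC and 901 in mESC under CHIR with PD. Another 3 probes annotated to Sprr2a genes had differences between 2.08 and 3.21, and because the copies share probes these are not independent values.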

How the results depend on the processing

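No paired analysis was possible because each group had 1 array, and for the same reason no array could be left out. The number of genes with a difference of 1 or more was 320 as reported. It was 637 with the lowest intensity shifted to 4 (319 genes shared with the 320), 175 with it shifted to 64 (174 shared), and 68 at a 4-fold threshold. The number with a difference of -1 or less was 208 as reported, 681 with the shift to 4 (208 shared), 82 with the shift to 64 (82 shared), and 24 at a 4-fold threshold. The shifts add or remove background by construction, and under the shift to 4 the lower count exceeded the higher one. Quantile normalization, centring, the brightest probe and a count by probe with several-symbol probes included left both counts within 1.5 times. Those counts ran from 314 to 361 higher and from 183 to 245 lower. The filter on dim genes kept 238 of the 320 and 144 of the 208. On linear intensities only the direction of the counted genes was checked, and 318 of the 320 and 202 of the 208 kept it. The filter and the linear check could not raise a count. Among the named genes with a difference of at least 1 in size, 2 signs reversed, both on linear intensities, Otx2 (-361.19) and Id2 (26.97). Sizes moved by more than 1.5-fold in 38 of the 180 named genes with the shift to 64 (Aplnr had 5.83 and Frzb 2.39), in 14 with the shift to 4 and in 5 with the brightest probe, and list medians moved by more than 0.2 on the log2 scale in 5 lists with the filter on dim genes and 3 with the shift to 64. The median of the 3 caudal genes, -0.26 as reported, was 0.18 with the shift to 4 and 0.30 over genes above the median level.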

Other observations

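Some genes that lie side by side on a chromosome were counted together. RefSeq's order on GRCm38.p6 held 18984 measured protein-coding genes, of which 308 were counted as higher and 186 as lower. In 36 pairs of adjacent genes both had a difference of at least 1 in size, 18 with both higher, 12 with both lower and 6 with one each way. Apart from Hoxb1 and Hoxb2, the higher pairs included Tmem176b (3.07) and Tmem176a (2.68), which encode related membrane proteins, and the imprinted neighbours Peg3 (2.32) and Usp29 (1.96). The lower pairs included the homeobox gene En2 (-1.71) and Cnpy1 (-2.53), Fgf4 (-2.93) and Fgf15 (-1.36), and H2bc1 (-2.28) and H2ac1 (-2.65). Aplp1 (-1.57), Kirrel2 (-2.89) and Nphs1 (-2.21) were 3 lower genes in succession. Some pairs are related copies, and shared probes and chance pairing were not tested. These pairs were chosen after their values were seen.

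Several of the higher pairs are genes known to be induced by interferon, again chosen after their values were seen. The GTPase gene Igtp was at 162 with CHIR and 28.4 without it in EpiLC, against 37.0 with CHIR and 39.5 without it in mESC, and its neighbour Irgm2 was at 236 (CHIR) and 55.3 (untreated) in EpiLC, against 51.2 (CHIR) and 42.6 (untreated) in mESC. The immunoproteasome subunit gene Psmb8 was at 241 in CHIR-treated EpiLC and 98.0 in untreated EpiLC, against 97.1 in CHIR-treated mESC and 101 in untreated mESC, and Tap2, which encodes a subunit of the antigen peptide transporter, was at 122 with CHIR and 38.1 without it in EpiLC, against 38.4 with CHIR and 39.8 without it in mESC. In these 4 genes CHIR-treated EpiLC was the single high array. Ifitm1 was at 168 (CHIR) and 46.0 (untreated) in EpiLC, against 239.6 (CHIR) and 425 (untreated) in mESC, so its levels were higher in mESC on both arrays.

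One probe with no gene in the annotation used here had a larger difference than all but 5 named genes, 4.30. It was at 1460.03 in CHIR-treated EpiLC and 85.98 in untreated EpiLC, against 85.69 in CHIR-treated mESC and 99.2 in untreated mESC. Under CHIR with PD it was at 4063 in EpiLC and 63.2 in mESC.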
